A study of Homo sapiens with 4 samples.

Results

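Promoter peaks of c-MYC that were called in DMSO-treated MIA PaCa-2 cells and again under AMG510, but not under trametinib, numbered 738. They were chosen by the overlap of the called peak lists: a DMSO peak was taken where its summit lay at most 1 kb from where a protein-coding transcript begins (its transcription start site, TSS), and where it shared at least 1 bp with an AMG510 peak and shared none with a trametinib peak. They were 16.0% of the 4621 DMSO promoter peaks (95% Wilson interval 14.9 to 17.1), and among all 9552 DMSO peaks 918 (9.61%) had the same overlaps. Of the other DMSO promoter peaks, 794 (17.2%) were kept under both drugs, 488 (10.6%) under trametinib only, and 2601 (56.3%) were absent under both. The overlaps defined these classes, so the shares describe the choice.

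MIA PaCa-2 is an established cell line of human pancreatic ductal adenocarcinoma. The cells had been treated for 8 h with DMSO, the solvent control, with AMG510 at 100 nM, or with trametinib, an inhibitor of the kinase MEK, at 10 nM. Chromatin immunoprecipitation and sequencing (ChIP-seq) with a c-MYC antibody gave 1 library for each treatment, and DMSO-treated cells also gave 1 control library with non-specific immunoglobulin (IgG). No group was replicated, so what follows compares libraries and has no replicate check, and intervals cover counting error only. From the background and the narrowest peak width, the libraries were estimated to hold between 22700000 and 24800000 tags at peak calling. These are not counts of reads. The c-MYC lists held 9552 peaks in DMSO, 10378 in AMG510 and 5431 in trametinib. An unmatched peak is one that was not called, which is not the same as a site without c-MYC.

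c-MYC is a transcription factor that binds DNA as a dimer with MAX. The dimer prefers the E-box, the palindrome CACGTG, and binds widely at active, CpG-rich promoters, also where no E-box is present. MYC is known for driving the genes of ribosome production, protein synthesis, nucleotide synthesis and mitochondrial biogenesis. Signalling through RAF, MEK and ERK stabilizes the MYC protein, and MEK is the kinase that trametinib inhibits.

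Sequences at the DMSO summit are shown to let the E-box be seen in its promoter. Each is 121 bases of GRCh38, plus strand, centred on the summit, with CACGTG in capitals where it falls inside the stretch. The first 4 are E-box promoters with large DMSO fold enrichment. They lie at chr12:121296423-121296543 (CAMKK2), chr11:57741325-57741445 (SELENOH), chr4:94758291-94758411 (BMPR1B) and chr13:97976859-97976979 (IPO5). The CAMKK2 stretch holds 2 E-boxes, and the E-box of BMPR1B, centred 58.5 bp from the summit, runs off the end of the stretch by 1 base.
CAMKK2: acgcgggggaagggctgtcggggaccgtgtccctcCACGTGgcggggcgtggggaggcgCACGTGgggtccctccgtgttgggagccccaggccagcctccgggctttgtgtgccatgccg
SELENOH: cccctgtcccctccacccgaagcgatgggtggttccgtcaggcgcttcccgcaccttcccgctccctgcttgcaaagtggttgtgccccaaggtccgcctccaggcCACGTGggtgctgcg
BMPR1B: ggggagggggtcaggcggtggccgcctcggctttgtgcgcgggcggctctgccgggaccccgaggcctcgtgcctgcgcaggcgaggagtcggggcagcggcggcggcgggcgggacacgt
IPO5: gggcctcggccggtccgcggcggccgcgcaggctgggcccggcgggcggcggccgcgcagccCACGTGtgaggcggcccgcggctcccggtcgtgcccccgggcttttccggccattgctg

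Members with large DMSO fold enrichment and no E-box within 100 bp of the summit are shown beside them, since most of the 738 peaks are of this kind. They are the first 3 whose stretch holds no UTR, which passes over SLC25A33. These stretches lie at chr2:75710595-75710715 (GCFC2), chr7:75442577-75442697 (POM121C) and chr6:5003863-5003983 (RPP40). POM121C has a near-identical paralogue, so the assignment of its reads is uncertain.
GCFC2: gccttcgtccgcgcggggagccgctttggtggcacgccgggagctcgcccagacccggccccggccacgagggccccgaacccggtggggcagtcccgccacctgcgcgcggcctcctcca
POM121C: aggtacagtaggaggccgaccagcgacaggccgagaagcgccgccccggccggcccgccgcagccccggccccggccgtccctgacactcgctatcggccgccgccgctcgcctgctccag
RPP40: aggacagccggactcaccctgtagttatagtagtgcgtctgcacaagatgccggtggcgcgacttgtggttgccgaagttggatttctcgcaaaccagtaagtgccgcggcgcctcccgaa

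Further E-box members belong to pathways described below. They were selected after their values were seen. They lie at chr19:55655360-55655480 (U2AF2, a splicing factor subunit), chr4:7067648-7067768 (GRPEL1, a mitochondrial co-chaperone), chr17:4949835-4949955 (ENO3, a glycolytic enolase, in a peak shared with PFN1), chr2:11465547-11465667 (E2F6, a cell-cycle repressor) and chr19:5903839-5903959 (NDUFA11, a subunit of respiratory complex I).
U2AF2: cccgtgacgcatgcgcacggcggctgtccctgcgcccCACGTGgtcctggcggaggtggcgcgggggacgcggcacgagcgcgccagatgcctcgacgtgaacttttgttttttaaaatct
GRPEL1: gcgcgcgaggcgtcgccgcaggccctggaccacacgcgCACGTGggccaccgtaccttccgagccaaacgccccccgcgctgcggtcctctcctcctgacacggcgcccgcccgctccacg
ENO3: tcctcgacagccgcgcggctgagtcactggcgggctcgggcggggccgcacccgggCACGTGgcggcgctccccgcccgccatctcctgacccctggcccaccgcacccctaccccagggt
E2F6: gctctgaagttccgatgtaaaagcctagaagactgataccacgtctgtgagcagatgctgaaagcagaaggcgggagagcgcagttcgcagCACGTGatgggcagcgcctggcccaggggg
NDUFA11: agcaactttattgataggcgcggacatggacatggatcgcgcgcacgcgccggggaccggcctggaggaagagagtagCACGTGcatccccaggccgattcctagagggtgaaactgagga

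Peaks are described by the tags piled up at their summit and by their fold enrichment. The latter is the ratio of that pileup to the local background, with 1 added to each. In DMSO the members had a median of 17 tags (95% interval of the median 17 to 18) and a median fold enrichment of 5.05, with values from 8 to 46 tags and from 2.64 to 11.04 in fold enrichment. Peaks kept under both drugs were stronger, with medians of 25 tags and 6.57, and peaks absent under both were weaker, with 14 tags and 4.55. Peaks kept under trametinib only resembled the members in DMSO, with medians of 17 tags and 5.03. The median width was 328.5 bp in the members, 457 bp in peaks kept under both, 311 bp in those kept under trametinib only and 251 bp in those absent under both. The strongest member, at POLR1B, ranked 79th among the 9552 DMSO peaks by fold enrichment. The class was thus one of intermediate DMSO peaks, without the strongest sites of the library.

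The share of DMSO promoter peaks kept under AMG510 only rose and then fell with DMSO strength. It was between 11.04% and 12.6% in the 3 weakest deciles of fold enrichment, reached 23.2% in the 9th decile and was 12.3% in the 10th. Over the same deciles the share kept under both drugs went from 2.38% to 67.1%, and the share absent under both from 78.0% to 11.04%. In the strongest decile, most peaks called under AMG510 were therefore called under trametinib as well.

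**Figure D1:**
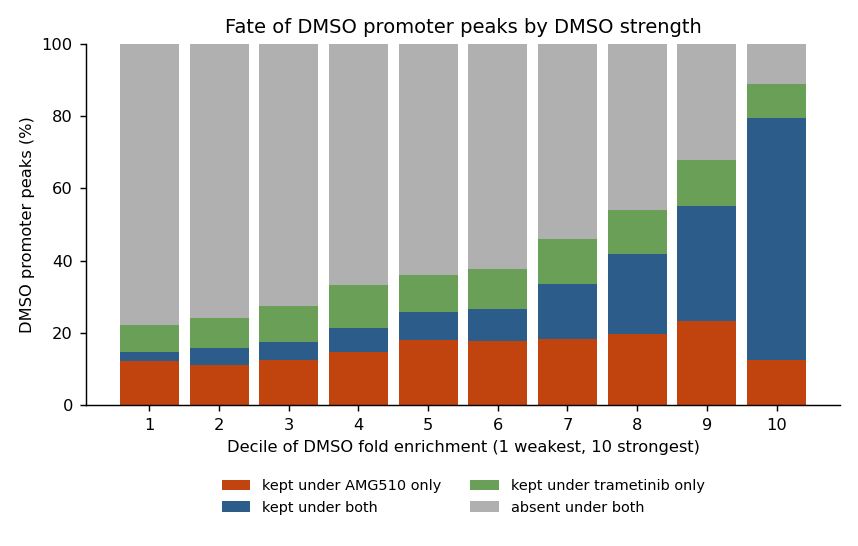
Share of DMSO promoter peaks (y axis, %) in each class by decile of DMSO fold enrichment (x axis, 1 weakest, 10 strongest); stacked colours are the 4 classes. The share kept under AMG510 only is largest in the 9th decile, 23.2%, while the share kept under both reaches 67.1% in the 10th.

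Under AMG510 most peaks over the members were lower than in DMSO. Their summits held a median of 13 tags, with quartiles at 11 and 16 and a range from 7 to 30, and a median fold enrichment of 4.65. The AMG510 pileup was below the DMSO pileup at 572 members (77.5%), equal at 56 and above at 110 (14.9%). The narrowest peaks put the tag extension at 177 bp in DMSO, 157 bp in AMG510 and 163 bp in trametinib. Pileups of different libraries are therefore not on one scale, and they were not corrected for this. By fold enrichment, which divides by the local background, 275 members (37.3%) were higher under AMG510 than in DMSO. The median log2 ratio of AMG510 to DMSO tags was −0.35 (−0.39 to −0.32), against −0.63 in peaks kept under both. In peaks kept under trametinib only, the log2 ratio of trametinib to DMSO tags had a median of −0.30 (−0.35 to −0.25). All of these pileups come from lists that chose the members, so they are given as descriptions.

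This ratio varied with DMSO strength in both of these classes. Members with a DMSO fold enrichment of at most 4 had a median log2 ratio of 0, and members above 7 had −0.91. Peaks kept under both had −0.11 and −0.90 in the same bands. Across the 5 bands the median AMG510 pileup of the members stayed between 13 and 14 tags. The DMSO pileup enters both the bands and the ratio, so a fall across the bands is built in. It is no separate result about AMG510.

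**Figure D2:**
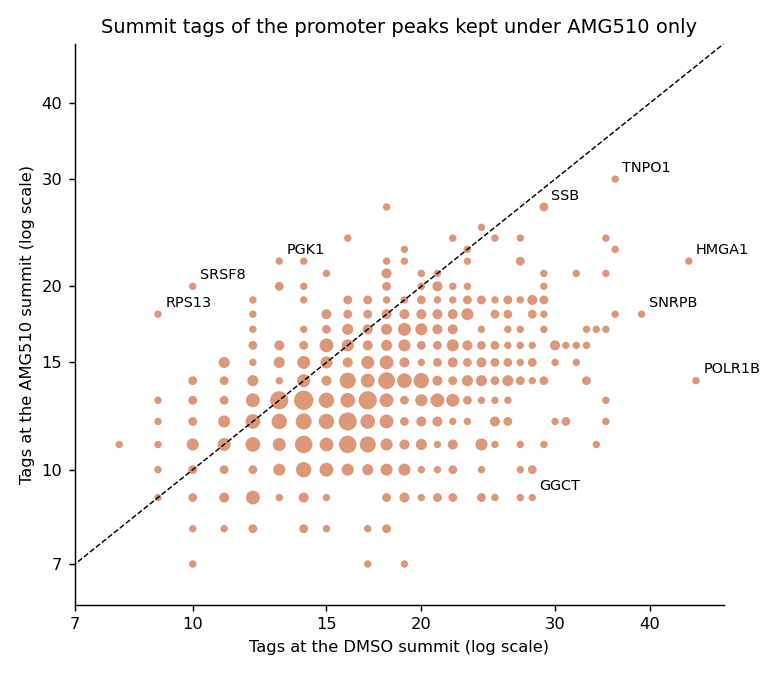
Tags at the DMSO summit (x axis, log scale) and at the AMG510 summit (y axis, log scale) for the 738 members; larger points hold more peaks, the dashed line marks equal values and 9 genes are named. Most points, 572 peaks, lie below the line, and AMG510 pileups run from 7 to 30.

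Few members were strong sites under AMG510. A pileup of 20 or more tags was reached by 43 members (5.83%), against 248 of 794 peaks kept under both (31.2%). A fold enrichment above 5 under AMG510 was reached by 248 members (33.6%), against 456 (57.4%). At the weak end, 101 members (13.7%) rested on 10 or fewer AMG510 tags. The smallest called pileup was 7 tags in the AMG510 list and 8 in the trametinib list, and 3 members (0.407%) had an AMG510 pileup under the latter. At a pileup of 13 tags, the exact Poisson interval given by the PGK1 peak in DMSO was 6.92 to 22.2 tags, which spans the smallest calls of both lists.

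The AMG510 peak sat close to the DMSO peak it overlapped. The summits lay a median of 88 bp apart, and at 406 members (55.01%) at most 100 bp apart. The AMG510 summit fell inside the DMSO peak at 573 members (77.6%). The members matched 746 distinct AMG510 peaks, since 9 members overlapped 2 of them. The nearest trametinib peak was a median of 91322 bp away. It lay within 200 bp of 30 members (4.07%) and within 1 kb of 81 (10.98%).

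Members near the limits of the rule show how far it decides the class. The peaks at MBD3, a chromatin protein of the NuRD complex, and RPS10, a ribosomal protein, missed a trametinib peak by 14 bp. ASH2L shared 4 bp with an AMG510 peak. The ZNF516 summit lay at −984 bp from its nearest TSS and that of ZNF469 at 981 bp. Just outside, AMZ2 and MRRF were kept under both drugs by 1 and 2 bp shared with trametinib, RUFY2 and BAG2 missed an AMG510 peak by 0 and 4 bp, and LRR1 and LRP8 had summits 1081 and 1160 bp from a TSS.

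POLR1B encodes the second largest subunit of RNA polymerase I, which transcribes ribosomal RNA. Its peak at chr2:112542414-112542813, in coding exon 1 with the summit 111 bp downstream of a TSS, held 46 tags in DMSO (exact Poisson interval 33.7 to 61.4) and 14 under AMG510 (7.65 to 23.5). The fold enrichment was 11.04 and 4.56, and the log2 ratio of tags of −1.72 was the lowest of the members. The intervals of the 2 pileups did not overlap, but the peak was named for its extreme DMSO value, so this is no test. CAMKK2, a calcium-dependent kinase upstream of AMPK, had 32 tags in DMSO and 15 under AMG510, at chr12:121296279-121296693 in intron 1.

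AEN, a nuclease, had 35 DMSO tags and 17 AMG510 tags at chr15:88621273-88621735 in intron 1, and it was in the first 10 by fold enrichment in both lists, with 10.0 and 7.45. GCFC2 had 36 and 18 tags in DMSO and AMG510, and SLC25A33, a mitochondrial carrier of pyrimidine nucleotides, had 35 and 13. RPP40, a subunit of RNase P, had 33 and 16 tags. HMGA1, an architectural chromatin protein, had 45 and 22 tags, with its summit at −660 bp from the nearest TSS. THAP12 had 27 and 9 tags, and POM121C, a nuclear pore protein, had 24 and 15. All of these pileups were lower under AMG510. Their intervals overlapped at CAMKK2, POM121C and AEN among others, and lay apart at THAP12 (17.8 to 39.3 and 4.12 to 17.1) and SLC25A33 (24.4 to 48.7 and 6.92 to 22.2). These peaks were picked for large DMSO fold enrichment, so lower second values and intervals that lie apart are descriptions only.

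The largest fold enrichments under AMG510 were those of SSB, TLNRD1, TNPO1, PGK1, RPLP0, HSPA1L, RPS13, GRWD1, THNSL1 and AEN. TLNRD1 shares its peak with the unnamed gene ENSG00000288625, under which the peak is listed, and a trametinib peak lay 745 bp away. SSB, which binds the ends of new polymerase III transcripts, had 29 DMSO and 27 AMG510 tags, with an AMG510 fold enrichment of 8.59. TNPO1, a nuclear import receptor, had the most AMG510 tags of the members, 30, and 36 in DMSO. Its nearest trametinib peak was 193 bp away. RPLP0, a ribosomal stalk protein, had 24 and 25 tags, and GRWD1, a ribosome assembly chaperone, had 27 and 24. The HSPA1L peak, with 18 tags in both, lies by the near-identical heat shock genes HSPA1A and HSPA1B and is uncertain. At SSB, RPLP0, HSPA1L and GRWD1 the 2 pileups were within 3 tags of each other.

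The largest ratios of AMG510 to DMSO tags were at RPS13, SRSF8 and PGK1. RPS13, a protein of the small ribosomal subunit, had 9 DMSO tags and 18 AMG510 tags (4.12 to 17.1 and 10.7 to 28.4). SRSF8, a splicing factor with close copies in the genome, had 10 and 20, and PGK1 had 13 and 22. After POLR1B the smallest ratios were at GGCT, with 28 and 9 tags (log2 ratio −1.64), and PARD3, a cell polarity protein, with 34 and 11 (−1.63). PARD3 had a trametinib peak 34 bp away.

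The IgG control called few peaks at these sites. It overlapped 3 members (0.407%, 0.138 to 1.19), at PGK1, PDF and TPT1, against 3 of the peaks kept under both (0.378%). PGK1, a glycolytic kinase, held 29 tags in the IgG list against 13 in DMSO c-MYC and 22 in AMG510 c-MYC, so its IgG pileup was the highest of the 3. PDF, a mitochondrial peptide deformylase, held 11 IgG tags against 18 and 20, and TPT1 held 10 against 14 and 19. The IgG difference between the members and peaks kept under both was 0.029 points (−0.746 to 0.849).

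The E-box was next examined, since the rule did not use sequence. CACGTG was present within 100 bp of the DMSO summit at 130 members (17.6%, 15.04 to 20.5). The share was 28.5% in peaks kept under both, 21.9% in those kept under trametinib only and 12.3% in those absent under both. The share in the members minus that in peaks kept under both was −10.8 points (95% Newcombe interval −14.99 to −6.64), and minus that in peaks absent under both it was 5.35 points (2.46 to 8.50). With only the DMSO list held to a fold enrichment above 5, the former was −7.10 points (−12.5 to −1.46). With only the AMG510 and trametinib lists held to it, the value was −9.84 points (−16.4 to −3.25). With the DMSO, AMG510 and trametinib lists all above 5 it was −6.17 points (−13.6 to 1.46), an interval that holds 0. That last setting was added after the data were seen. The difference from peaks kept under trametinib only was −4.31 points (−8.97 to 0.20), an interval that also holds 0. It left 0 out where 50% of the shorter peak had to be shared (−5.87, −10.8 to −1.06), with every transcript of protein-coding genes (−4.52, −9.13 to −0.051) and with canonical transcripts only (−4.82, −9.61 to −0.20). For scale, 5.63% of 19701 windows of the same length, centred on the canonical TSS of protein-coding genes, held CACGTG, and 1.897% of windows 1 kb from the members' summits did. The windows 1 kb away held it more often in peaks kept under both (3.65%), kept under trametinib only (3.38%) and absent under both (3.38%).

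DMSO strength moved with the E-box. Among members with a DMSO fold enrichment of at most 4, 9.28% had an E-box, and among members above 7, 36.9% did. Peaks kept under both went from 8.00% to 39.9% over the same bands. From 4 to 5 the shares were 11.1% in the members and 18.02% in peaks kept under both, from 5 to 6 19.9% and 18.6%, and from 6 to 7 23.7% and 24.8%. The intervals of these 2 classes overlapped in every band. In peaks absent under both, the shares from the weakest band to the strongest were 7.01%, 10.8%, 17.7%, 14.4% and 34.4%. The members had a higher share than absent peaks in every band, by the most from 6 to 7 (23.7% against 14.4%). In peaks kept under trametinib only, the shares were 15.6%, 15.4%, 22.1%, 27.3% and 46.8%, above the members in every band. The separate intervals of the members and of each of these 2 classes overlapped in every band too. Such overlap does not settle whether the shares differ, and no interval of the difference was computed within bands. Bands were added after the shares had been seen.

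**Figure D3:**
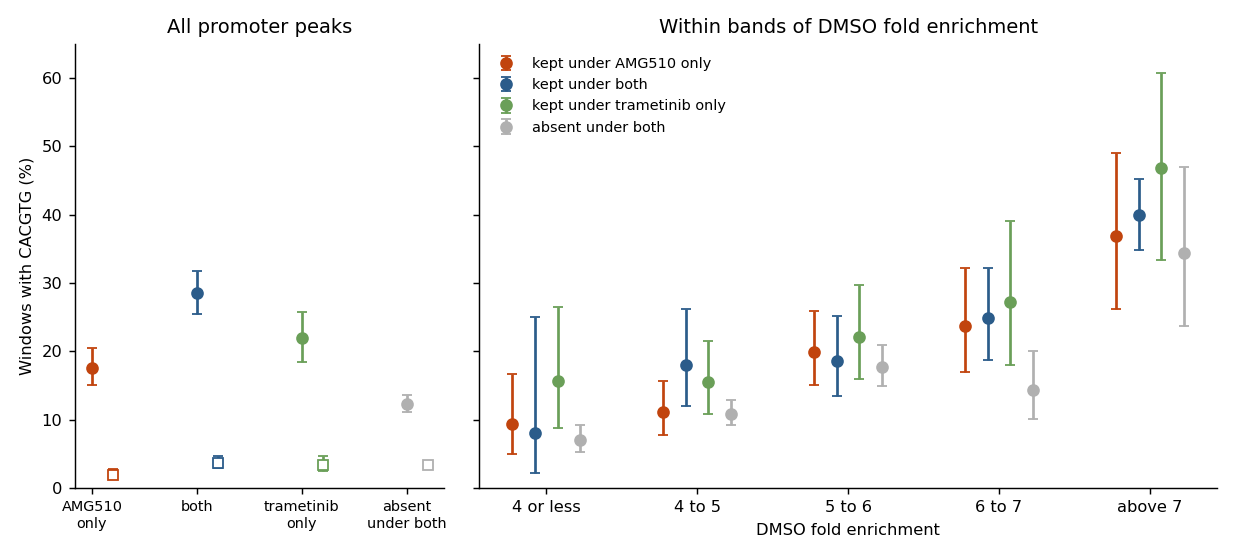
Percentage of windows with CACGTG (y axis) in the 4 classes of DMSO promoter peaks, over all peaks (left; filled circles, within 100 bp of the summit; open squares, windows 1 kb away) and within bands of DMSO fold enrichment (right). Error bars are 95% Wilson intervals; 17.6% of members and 28.5% of peaks kept under both have an E-box, but within bands the intervals of the 2 classes overlap.

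The E-boxes gathered at the summit. In 50 bp bins, 42 and 45 E-boxes were centred in the bins on either side of the DMSO summit, and 6 and 9 in the outermost bins, 250 to 300 bp away. An E-box was centred within 25 bp at 45 members and within 50 bp at 82. Around the AMG510 summit, 120 members had an E-box within 100 bp, 88 had one at both summits and 162 at either. The CAMKK2 sequence above has its nearest E-box centred 1.5 bp from the summit and is one of 6 members (0.813%) with 2 or more, against 2.77% of peaks kept under both (difference −1.96 points, −3.41 to −0.63). The share was 0.820% in peaks kept under trametinib only and 0.884% in those absent under both. The intervals of the differences from these classes held 0.

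**Figure D4:**
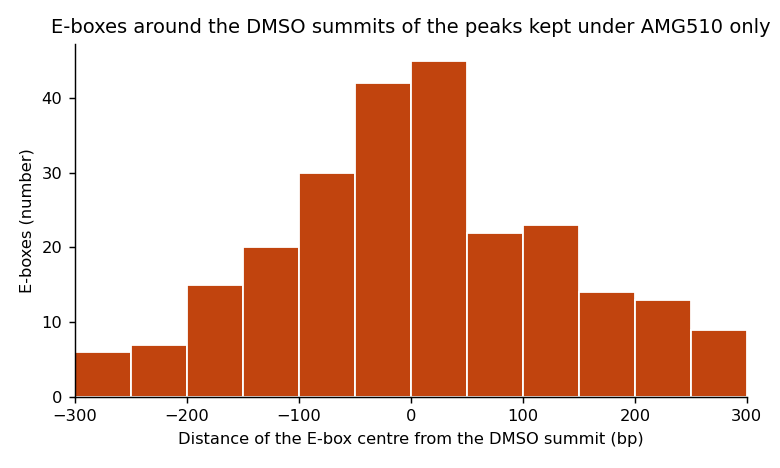
Number of E-boxes (y axis) by distance of their centre from the DMSO summit (x axis, bp, 50 bp bins) over the 738 members. The bins next to the summit hold 42 and 45, the outermost ones 6 and 9.

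Motifs of other factors were counted in the same windows, on both strands, for 8 motifs and 24 comparisons, without adjustment. The noncanonical E-box CACGCG was in 26.0% of members, 30.7% of peaks kept under both and 19.5% of those absent under both, and in 10.8% of canonical TSS windows. The differences were −4.71 points (−9.19 to −0.19) and 6.56 points (3.15 to 10.2). CCAAT, the NFY box, was in 7.18% of members and 10.2% of peaks absent under both (−3.01 points, −5.06 to −0.64), and in 25.4% of TSS windows. For CCGGAAG (the ETS core), TGACGTCA (CRE), GGGCGG (the GC box), GCGCATGC (the NRF1 core) and AAGATGGC (the YY1 core), each interval held 0. GGGCGG was in 61.5% of members and 53.97% of TSS windows, and CCGGAAG in 7.72% and 11.2%. These are matches of letters, and no binding by the factors was measured.

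The members lay in GC-rich promoters, as did the other classes. The median GC content in the 201 bases around the summit was 73.1%, against 72.6%, 72.1% and 71.6% in peaks kept under both, under trametinib only and absent. The median ratio of observed to expected CpG was 0.893 (0.882 to 0.905) against 0.871, 0.872 and 0.853. Summits lay within 250 bp of the nearest TSS at 63.3% of members, and at 72.3% of peaks kept under both (−9.01 points, −13.7 to −4.33), where the differences from the remaining classes held 0. Within bands of DMSO fold enrichment the intervals of the members and of peaks kept under both overlapped each time, and above 7 the shares were 78.5% and 76.3%. The summit was in an intron of the canonical transcript at 312 members (42.3%), upstream at 184 (24.9%), in the 5′ UTR at 132 (17.9%), in a coding exon at 109 (14.8%) and downstream at 1. At 11.5% of members, start sites on both strands lay within 1 kb. By chromosome, the members' share of DMSO promoter peaks ran from 8.74% on chromosome 22 to 25% on chromosome 15.

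At the level of genes, 822 of the 4770 genes with a DMSO promoter peak had a member (17.2%). Of the members, 91 lay at 2 or more genes, and 11 genes had 2 or more members. A gene with a member could still have a trametinib peak elsewhere in its promoter, and 107 genes (13.02%) did, 47 of them through another DMSO peak that was also called under trametinib. The remaining 715 genes had no trametinib promoter peak. The rule itself barred one that overlapped the member, and how many of the 715 follow from this was not counted. In the 25 gene lists below, 139 of 693 genes with a DMSO promoter peak had a member (20.1%). The lists describe function, and each count is to be read against the 17.2% of all genes.

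**Figure D5:**
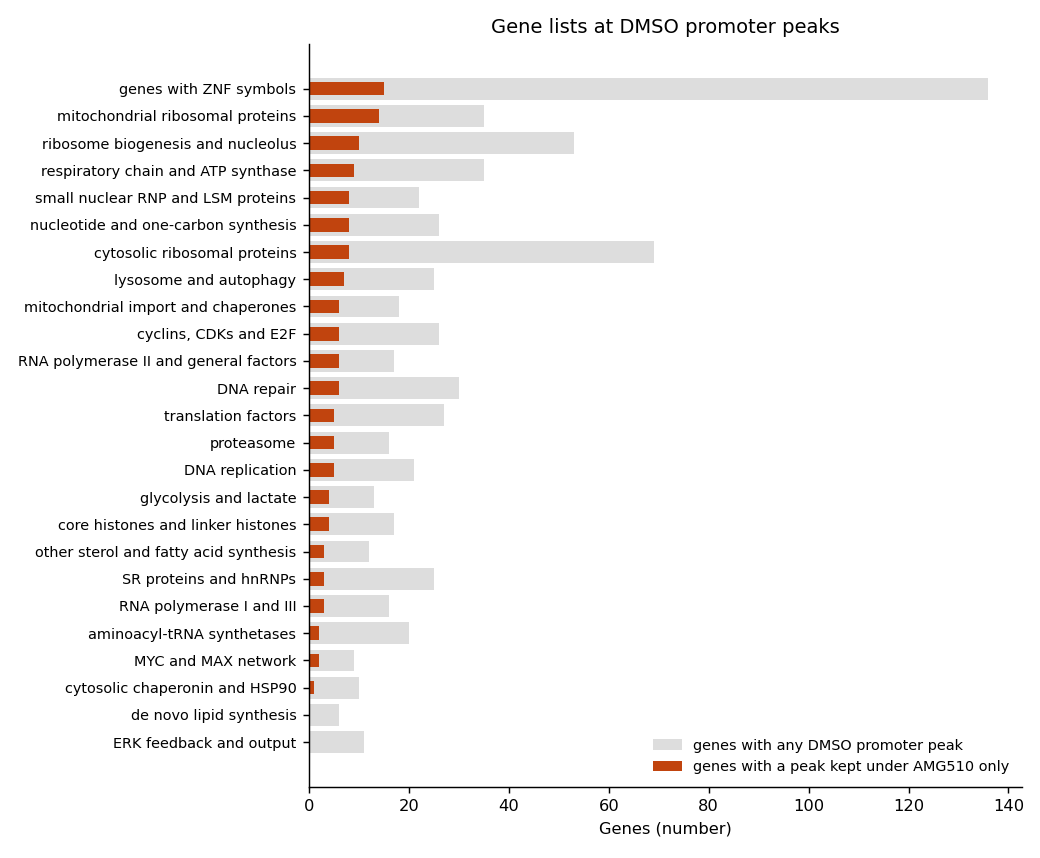
Number of genes (x axis) with a promoter peak kept under AMG510 only (orange) and with any DMSO promoter peak (grey) in each of 25 gene lists (y axis). Mitochondrial ribosomal proteins have 14 of 35 genes and cytosolic ribosomal proteins 8 of 69, against 17.2% of all genes.

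Proteins of the mitochondrial ribosome, which translates the transcripts of mitochondrial DNA, had 14 of 35 genes with a member (40%). Under both drugs, 3 genes of the list were kept. MRPL4 had 29 DMSO and 14 AMG510 tags, and MRPL36 had 29 and 19. MRPL45 had 15 and 13 tags with an E-box centred 75.5 bp from the summit, and MRPS17 had 20 and 13. The other genes were MRPL48, MRPS35, MRPS26, MRPS6, MRPL21, MRPS33, MRPS7, MRPL24, MRPL20 and MRPL32. The median DMSO fold enrichment was 5.22 over the members and 5.198 over all DMSO promoter peaks of the list.

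Proteins of the cytosolic ribosome were mostly in the class kept under both. Of 69 genes, 8 had a member (11.6%) and 55 had a peak kept under both drugs. Their DMSO promoter peaks had a median fold enrichment of 7.38, and the 8 members 5.06. RPL34 had 22 DMSO and 10 AMG510 tags, and RPL4 17 and 10. RPL30 had 13 and 15, with an E-box centred 20.5 bp from the summit. RPLP0 and RPS13 are given above, and the others were RPLP2, RPS10 and RPS20. Ribosomal protein genes have many processed copies in the genome, so reads in their exons can be ambiguous.

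Ribosome assembly and nucleolar genes had 10 of 53 (18.9%), near the share of all genes. GAR1, a core protein of the particles that convert uridine to pseudouridine in ribosomal RNA, had 24 DMSO and 11 AMG510 tags, with an E-box centred 4.5 bp from the summit. FBL, the methyltransferase fibrillarin, had 28 and 10 tags, and URB2 had 34 and 17, both with an E-box. NOP58, DDX21, LYAR, WDR3, NOP2 and WDR74 were the other members beside GRWD1. The median DMSO fold enrichment of these members was 6.96, against 6.004 over all DMSO promoter peaks of the list. RNA polymerase I and III genes had 3 of 16 (18.8%): POLR1B, GTF3C2 with 16 tags in both libraries, and BRF1, a TFIIIB subunit whose peak is shared with PACS2, with 14 and 13. A trametinib peak lay 201 bp from the GTF3C2 peak.

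Genes of translation stood near the share of all genes or below it. Translation factors had 5 of 27 (18.5%), among them EIF2S2, a subunit of eIF2, with 23 DMSO and 18 AMG510 tags, and EIF1AX, an initiation factor, with 22 and 9. ETF1, the release factor, had 26 and 12 tags and a trametinib peak 53 bp away, and EEF1G had 14 and 8. Of these 27 genes, 16 were kept under both drugs. Aminoacyl-tRNA synthetases, which charge tRNAs, had 2 of 20 (10%): KARS1 with 20 and 14 tags and AARS2, the mitochondrial alanyl enzyme, with 12 and 13.

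Nucleotide and one-carbon synthesis had 8 of 26 genes (30.8%). ATIC, which catalyses the last steps of purine synthesis, had 29 DMSO and 20 AMG510 tags, and MTHFD1L, a mitochondrial one-carbon enzyme, had 30 and 16. PAICS and PPAT share a bidirectional promoter, and 1 peak with 20 and 17 tags served both, with a trametinib peak 757 bp away. PFAS, another enzyme of purine synthesis, had 17 and 12 tags. ATIC, MTHFD1L and the PAICS and PPAT peak had an E-box within 100 bp. UMPS and DHODH of pyrimidine synthesis and GMPS of guanine nucleotide synthesis were the other genes.

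Mitochondrial genes outside the ribosome were represented too. Respiratory chain and ATP synthase genes had 9 of 35 (25.7%). ATP5MC2 had 19 DMSO and 10 AMG510 tags, ATP5F1C 18 and 12, and NDUFAF8 22 and 15. A peak shared by NAA15 and NDUFC1 had 17 and 10. Mitochondrial import and folding genes had 6 of 18 (33.3%). HSPD1 and HSPE1, the chaperonin and its lid, share 1 promoter, where the peak had 29 and 27 tags. GRPEL1 had 17 and 8 tags, HSPA9, the mitochondrial HSP70, had 22 and 15, and PHB2, a prohibitin, had 23 and 15. The first 3 of these peaks had an E-box. A trametinib peak lay 430 bp from the HSPD1 peak and 250 bp from the PHB2 peak, and 3 of the 6 genes had no trametinib promoter peak.

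Splicing genes fell in separate lists. Small nuclear RNP and LSM proteins had 8 of 22 (36.4%), with SNRPB, a core Sm protein, at 39 DMSO and 18 AMG510 tags, SNRPE at 30 and 15, LSM6 at 16 and 11, and U2AF2 at 27 and 17. SR proteins and hnRNPs had 3 of 25 (12%) and 15 kept under both. SRSF2 had 19 tags in both libraries and a trametinib peak 457 bp away. HNRNPH1 had 2 members, with 27 and 16 tags at one and 22 and 20 at the other. RNA polymerase II and general factors had 6 of 17 (35.3%). There POLR2I, a polymerase subunit, had 24 and 16 tags with an E-box, CCNT2 16 and 10, MED13L 12 and 16, and TAF15 14 and 13.

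Genes of the cell cycle had members in each of their lists. Cyclins, CDKs and E2F factors had 6 of 26 (23.1%), with CDK20 at 19 DMSO and 14 AMG510 tags, CDK13 at 26 and 14, CCNA2, the S-phase cyclin, at 14 and 11, and E2F6 at 17 and 11. DNA replication had 5 of 21 (23.8%). CDC7, the kinase that fires origins, had 24 and 14 tags, and the helicase subunits MCM2 and MCM6 had 22 and 13 and 17 and 15. MCM9 had 17 and 7 tags, the smallest AMG510 pileup that was called. DNA repair had 6 of 30 (20.0%), including MRE11 and XPA, each with 15 and 11 tags.

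Protein turnover was next. Proteasome genes had 5 of 16 (31.2%), with PSMD3 at 16 DMSO and 15 AMG510 tags, PSMA7 at 21 and 20, PSMD7 at 15 and 13 and PSMC2 at 13 and 12. These pileups were within 2 tags of each other in each case. The list of cytosolic chaperonin and HSP90 genes had 1 of 10 (10%), HSP90AA1, with 15 and 16. Lysosome and autophagy genes had 7 of 25 (28.0%). CTSC, a lysosomal protease, had 23 and 15 tags, and MAP1LC3B, an autophagosome protein, 21 and 20. ATP6V1E2 and ATP6V1A encode subunits of the proton pump of the lysosome, and their peaks, shared with RHOQ and NAA50, had 30 and 16 and 15 and 10 tags. ATG4B, SQSTM1 and TFEB, the regulator of lysosomal genes, were the others.

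Lipid synthesis fell in separate lists. None of the 13 de novo lipid synthesis genes named by the study had a member: 6 had a DMSO promoter peak, 3 of these were kept under both drugs and 3 were absent. The count was 1 with the drug lists, or all lists, held to a fold enrichment above 5 and with every transcript of protein-coding genes. FASN, the fatty acid synthase, was absent under both, with 209 bp between its DMSO peak and a trametinib peak and 12393 bp to the nearest AMG510 peak. ELOVL1, an elongase, had an AMG510 peak 384 bp away. Other sterol and fatty acid genes had 3 of 12 (25%): ACLY, which makes cytosolic acetyl-CoA, with 19 DMSO and 11 AMG510 tags, CYP51A1, a cholesterol synthesis enzyme, with 18 and 16, and MBTPS1, a protease that cuts SREBP, with 12 and 14. Glycolysis and lactate genes had 4 of 13 (30.8%), with ENO3 at 29 and 14, PFKP at 19 and 22, GAPDH at 26 and 19 tags, and PGK1 with the IgG pileup given above. The ENO3 peak is shared with PFN1. A trametinib peak lay 631 bp from the GAPDH peak and 1251 bp from the ENO3 peak, and 2 of the 4 genes had no trametinib promoter peak.

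The MYC and MAX network had 2 of 9 genes (22.2%): MXI1, a MAX partner that represses, with 19 DMSO and 17 AMG510 tags, and ZBTB17, known as MIZ1, with 12 in both. MAX, MGA, MNT, MYCL and MLXIP had DMSO promoter peaks that were absent under both drugs, and MXD1 and MXD3 were kept under both. ERK feedback and output genes had no member among 11 with a DMSO promoter peak. Of these, FOSL1 and SPRED1 were kept under trametinib only and ELK4 under both, and the other 8 were absent under both. Core and linker histones had 4 of 17 (23.5%), with peaks near H2AC11, H2AC25 and H3C2 in gene clusters of near-identical copies. Genes with ZNF symbols, mostly transcription factors with zinc fingers, had 15 of 136 (11.03%), with ZNF121 at 33 and 17 tags, ZNF710 at 20 and 12, ZNF384 at 32 and 21 and ZNF800 at 30 and 12. The ZNF800 peak had a trametinib peak 549 bp away.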

How the data were processed

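Peak lists of 4 libraries were used as deposited. According to the methods, the authors used Trimmomatic 0.39 for trimming and BWA for alignment to GRCh38, required a mapping quality of at least 20, removed duplicates, called peaks for each library with MACS2 at q = 0.05 and removed excluded regions. Whether the IgG library was the control in calling is not given in the sources used here, so peaks were treated as called against each library's own local background. The deposited score was checked for its range only. The deposited fold enrichment is a ratio of summit pileup to background with 1 added to each, and the deposited −log10 values of p and q belong to the summit. Pileups came from fold enrichment and −log10 p, and were whole numbers for 100% of peaks in each list. Both mates of a pair can count, so intervals are too narrow. Depth in calling assumed a genome of 2.7e+09 bp. TSS, exons and introns came from GENCODE 44, protein-coding transcripts only, with 4 DMSO promoter peaks on mitochondrial DNA and none of them a member, and positions are 1-based on GRCh38.

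Shares have Wilson intervals, differences Newcombe intervals, pileups exact Poisson intervals and medians order-statistic intervals, all at 95%. No test between conditions was possible with 1 library per group. Members and gene lists were chosen with earlier results of these data known. Named genes were the 10 largest by DMSO and by AMG510 fold enrichment, the 10 largest with an E-box, up to 4 per list, the threshold neighbours, those overlapped by IgG and the 3 largest and smallest pileup ratios. Functions were tested on simulated data. Python 3.11.15, pandas 2.3.3, scipy 1.17.1 and pysam 0.24.0 were used. What AMG510 targets and a few named items are not reported here.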

Additional observations from a re-analysis of the deposited data

How the results depend on the processing

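No paired analysis was possible because no group holds more than 1 library. The number of members was 738 and fell to 389 with DMSO peaks above a fold enrichment of 5, to 383 with drug peaks above 5, and to 264 with all lists above 5, a setting added after the data were seen. The E-box share was 23.9%, 22.5% and 27.3% in these settings, 10.4% and 25.3% with windows of 50 and 200 bp, and 40.4% with CACGCG included. With all lists above 5 the difference from peaks kept under both was −6.17 points and its interval (−13.6 to 1.46) held 0. With CACGCG the difference from absent peaks was 10.7 points. The IgG share was 0 (0%) with DMSO peaks above 5 and with all lists above 5. The median log2 ratio was −0.55 with DMSO peaks above 5, −0.21 with drug peaks above 5, and −0.25 with the AMG510 list cut to the length of the trametinib list. The interval of the difference from peaks kept under trametinib only left 0 out in 3 settings, given beside that result. The cause of these shifts was not tested. Of the alternatives to these results, 59 stayed within the interval of the value (counts, within 1.5 times), 16 did not and none changed sign. Of the counts per gene list, 62 moved beyond that and 163 did not. Of 109 named peaks, 40 stayed members with all lists above 5.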
